A study of Mus musculus with 16 samples.

Results

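S phase Sertoli cells were examined by single-cell RNA sequencing of whole mouse testes at postnatal day 2, a time at which Sertoli cells still divide. They were selected on measured values: a barcode was a member when it held at least 3 UMIs of *Amh*, at least 2 of the 4 further Sertoli markers *Rhox8*, *Cst9*, *Cst12* and *Aard*, a sum of at least 4 UMIs of *Pclaf* and *Rrm2*, and a sum of at most 1 UMI of the mitotic genes *Ube2c*, *Plk1* and *Ccnb1*. A UMI is a molecular identifier that counts an RNA molecule once. This rule gave 219 cells, of 3890 Sertoli cells by the same markers and of 11279 barcodes in all that passed a floor of 2000 genes and a ceiling of 10% of UMIs from mitochondrial genes. They were compared with 1654 resting Sertoli cells, which had 0 UMIs of *Pclaf* and *Rrm2* and met the same mitotic limit. "Resting" names this count only, since a cell with 0 UMIs of both genes may still be in cycle.

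The wild type group and the Ddx5 conditional knockout group each had 8 labelled libraries. In the knockout, floxed *Ddx5* was removed by a Cre driven from the germ cell gene *Mvh*, so Sertoli cells of that group were not meant to carry the deletion, and mice of the study also carried an *Oct4*-GFP reporter of germ cells. The count table did not separate the 8 libraries of a group and named each barcode by 1 of 2 suffixes, with 6763 and 5423 barcodes. No label or header used here gives the genotype of a suffix. The larger was taken as the wild type library and the smaller as the library labelled knockout, because of the cell numbers stated for each after filtering. Each genotype was thus 1 library, and no test between genotypes was possible. All values below are descriptions, and their intervals cover counting error only.

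S phase is the part of the cell cycle in which DNA is copied. Origins are first licensed by loading of the MCM helicase, the helicase is then activated, and polymerases held by the PCNA clamp copy both strands while ribonucleotide reductase and thymidylate synthase supply deoxynucleotides and histone chaperones rebuild chromatin. Many of the genes involved are transcribed under E2F factors as cells pass from G1 into S. Mitotic genes are transcribed later, and many carry a cell cycle homology region (CHR) in their promoters. Sertoli cells are the supporting cells of the seminiferous tubule, and their divisions before puberty set their final number. PCLAF, which chose the members, binds PCNA, and RRM2 is the regulated subunit of ribonucleotide reductase.

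Stretches of promoter are shown first, because E2F or CHR letters stood in a larger share of the promoters of genes higher in these cells than of all promoters, as counted further on. Each is a run of 60 bases before a RefSeq transcription start (GRCm38.p6), written 5′ to 3′ on the gene's strand. In the following 7, from genes of licensing, the fork and chromatin assembly, capitals mark matches to E2F letters.
*Mcm5* (helicase subunit), chr8:75109336-75109395, plus strand, 173 to 114 bases before the start: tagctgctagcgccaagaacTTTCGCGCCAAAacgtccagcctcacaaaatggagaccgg
*Mcm6* (helicase subunit), chr1:128359776-128359835, minus strand, 130 to 71 bases before the start: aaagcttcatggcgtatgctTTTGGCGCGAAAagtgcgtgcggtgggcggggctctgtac
*Mcm7* (helicase subunit), chr5:138172009-138172068, minus strand, 185 to 126 bases before the start: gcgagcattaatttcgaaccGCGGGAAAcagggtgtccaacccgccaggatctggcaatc
*Clspn* (checkpoint protein of the fork), chr4:126556839-126556898, plus strand, 141 to 82 bases before the start: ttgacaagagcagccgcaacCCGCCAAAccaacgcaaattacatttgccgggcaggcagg
*Uhrf1* (reader of hemimethylated DNA), chr17:56304108-56304167, plus strand, 205 to 146 bases before the start: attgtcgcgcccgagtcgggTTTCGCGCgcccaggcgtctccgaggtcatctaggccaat
*Hells* (chromatin remodeller), chr19:38930908-38930967, plus strand, 82 to 23 bases before the start: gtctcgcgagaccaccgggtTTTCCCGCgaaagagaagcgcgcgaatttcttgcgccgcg
*Chaf1a* (histone chaperone), chr17:56040352-56040411, plus strand, 64 to 5 bases before the start: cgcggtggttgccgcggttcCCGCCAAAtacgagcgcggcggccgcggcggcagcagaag
In the next pair, from genes that were higher still in mitotic cells, capitals mark CHR letters.
*Top2a* (topoisomerase of chromosome separation), chr11:99024190-99024249, minus strand, 60 to 1 bases before the start: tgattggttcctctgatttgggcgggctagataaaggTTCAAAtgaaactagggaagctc
*Mki67* (a protein of the mitotic chromosome surface), chr7:135716438-135716497, minus strand, 118 to 59 bases before the start: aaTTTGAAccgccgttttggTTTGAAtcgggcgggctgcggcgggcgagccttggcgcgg
In *Mcm5* and *Mcm6* 2 matches on opposite strands overlap.

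There were 128 members in the wild type library, 5.67% of its 2256 Sertoli cells (95% Clopper-Pearson interval 4.76% to 6.71%). There were 91 in the library labelled knockout, 5.57% of 1634 (4.51% to 6.79%). The shares overlapped, and so did those of S phase stromal cells chosen by the same limits, 6.12% (5.32% to 6.99%) and 4.90% (4.13% to 5.77%). Most Sertoli cells with S phase signal were outside the rule because of its mitotic limit: 421 and 387 further cells passed the *Pclaf* and *Rrm2* limit but held at least 2 mitotic UMIs. At any mitotic count, 24.3% (22.6% to 26.2%) of wild type and 29.3% (27.1% to 31.5%) of knockout-labelled Sertoli cells passed it. Those intervals did not overlap, but they cover cells of 1 library each. Sertoli cells of the knockout-labelled library were also deeper, with medians of 15848 against 13711 UMIs, and the part of depth in that difference was not tested. With every cell thinned to 5000 UMIs before the rule was applied, the shares at any mitotic count were 8.80% (7.54% to 10.2%) and 11.8% (10.1% to 13.6%), whose intervals overlapped, a ratio of 1.34. For members the ratio was 1.22, from 5.49% and 6.68%.

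Members were deeper than resting cells. Their median was 15224 UMIs (4216 to 46563) in wild type and 17363 (7047 to 39059) in the knockout-labelled library, against 11817 and 13498 in resting cells and 19066 and 21063 in 1320 mitotic Sertoli cells, which held at least 4 mitotic UMIs. Thinned to 5000 UMIs, members held a median of 2365 and 2339 genes and resting cells 2276 and 2264. As a description of the rule, members held a median of 12 and 11 UMIs of *Pclaf* and *Rrm2* together, from 4 to 40 in both libraries. At the edge of that limit, 14 and 9 members held 4 UMIs and 27 and 10 cells were just outside with 3. At the mitotic limit, 66 and 45 members held 1 UMI and 41 and 30 cells were just outside with 2. *Amh* had a median of 20 and 19 UMIs per member, and only 2 wild type members were at its limit of 3.

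The Sertoli label was checked on *Sox9*, which the rule did not use. Of 35 Sertoli identity genes compared, 23 were lower in members and 6 higher in both libraries, most of them slightly, as given further on. *Sox9*, a transcription factor of testis determination that maintains Sertoli fate, was at 268 counts scaled to the total UMIs of the group (CPM, its usual unit) in wild type members. It was at 260 in resting cells, and at 238 against 265 in the other library. At 5000 UMIs, 76.0% and 68.1% of members held a *Sox9* UMI, against 69.1% and 70.1% of resting Sertoli cells and 7.46% and 5.15% of S phase stromal cells. The stromal value is the background to read the shares against, with median depths of 12944 and 13901 UMIs before thinning. For the S phase part of the name, each of *Mcm2* to *Mcm7* and *Pcna* was over 2-fold higher in members than in resting cells in both libraries. The rule chose both groups on replication genes, so this is a description and no independent check of the name. Genes of G2 and mitosis were higher in members as well, as given further on.

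Libraries and barcodes had limits that bear on these cells. The suffixes shared 12 barcode sequences, 3 of them in members, and without those cells the shares were 5.64% and 5.46%. Scrublet called 12 of 128 wild type members (9.38%) and 15 of 91 others (16.5%) doublets, against 6.85% and 10.1% of resting cells. UMIs of the added CRE sequence numbered 0 in the wild type library and 20 in the other, and those of GFP 488 and 22; members held 0 of CRE and 1 of GFP. *Ddx5* itself was at 970 and 863 CPM in members, and 921 and 868 CPM in resting cells. Where the deleted part of the gene lies relative to the 3′ tags was not examined, so these values check no label.

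Across the genome, 12219 genes with at least 50 UMIs over the 4 sums of cells were compared, as a log2 ratio of CPM with 10 CPM added, members over resting cells. 198 genes were at least 2-fold higher in both libraries, which is 1.62% of the genes compared. Only 3 were at least 2-fold lower in both, 0.0246%. The rule used this contrast, so nothing is read from these counts. The 198 included the rule genes *Pclaf* and *Rrm2*, 122 were in a gene list and 76 were outside the lists. The libraries ran in parallel (Pearson r = 0.763 across genes, which are not independent replicates). The medians over all genes were 0.00 and -0.02, wild type first.

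**Figure D1:**
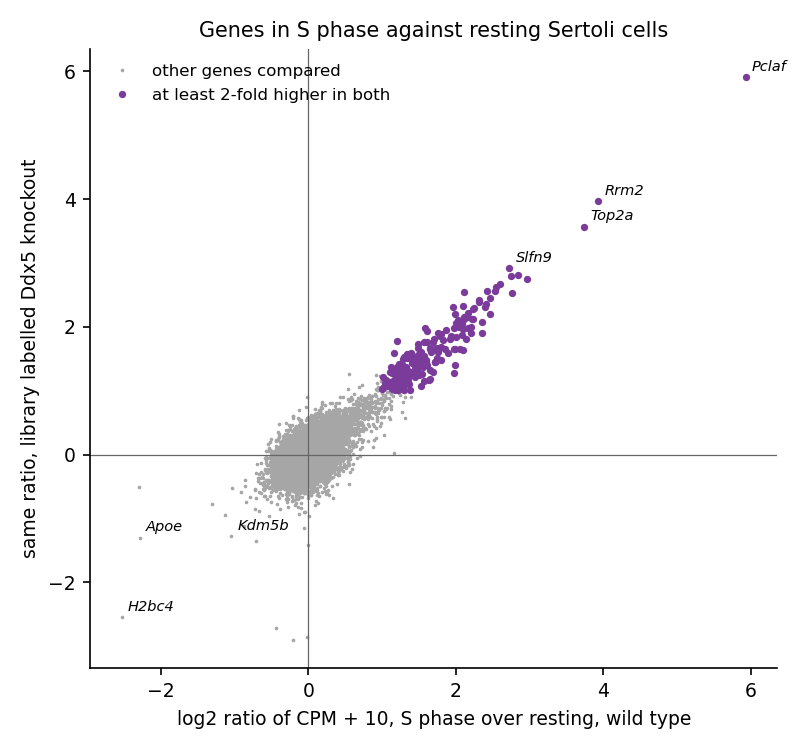
Log2 ratio of CPM plus 10, S phase over resting Sertoli cells, for each of 12219 genes in the wild type library (x axis) and the library labelled knockout (y axis). The 198 genes at least 2-fold higher in both (purple) form an arm along the diagonal up to the rule gene *Pclaf*, while few genes lie at the lower left.

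Genes of origin licensing and helicase loading were higher in members. Of 26 compared, 14 were at least 2-fold higher in both libraries and 0 lower, and the list median was 1.27 in wild type and 1.23 in the knockout-labelled library on the log2 scale, against 0.00 and -0.02 for all genes. *Mcm5* was at 209 and 193 CPM in members and 56.9 and 64.0 CPM in resting cells, a ratio of 3.68 (95% counting interval 3.27 to 4.14) and 3.02 (2.63 to 3.46). *Mcm3* was at 285 and 316 CPM against 89.3 and 102 CPM. *Mcm6* had the smallest ratio of the 6 helicase subunits in wild type, 2.45 (2.26 to 2.66), and 2.37 (2.16 to 2.59) in the other library. Factors that act at later steps of helicase activation followed. *Cdc45*, which joins the active helicase, was at 63.4 and 68.8 CPM against 7.24 and 5.67 CPM, 8.76-fold (6.68 to 11.5) and 12.1-fold (8.71 to 17.1). *Mcm10*, a helicase activator, was at 51.1 and 48.4 CPM against 3.70 and 3.15 CPM. *Gmnn*, which encodes geminin, the inhibitor of licensing, was at 347 and 343 CPM against 73.9 and 75.8 CPM. The 3 lowest ratios of the list were those of subunits of the origin recognition complex, although another subunit, *Orc6*, was called, with log2 ratios of 1.37 and 1.30. *Orc4* had log2 ratios of 0.01 and -0.15, *Orc3* of -0.10 and 0.05, and *Orc5* of 0.36 and -0.19.

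Of the replication fork genes, 25 of 35 were called, with medians of 1.32 and 1.30. *Pcna*, the sliding clamp, was at 467 and 480 CPM against 85.6 and 81.4 CPM, 5.46-fold (5.01 to 5.95) and 5.90-fold (5.34 to 6.52). At 5000 UMIs a *Pcna* UMI was held by 91.2% (84.8% to 95.5%) and 81.3% (71.8% to 88.7%) of members and by 32.9% and 31.6% of resting Sertoli cells. *Clspn*, the checkpoint mediator, was at 152 and 153 CPM against 13.9 and 18.2 CPM, and *Dscc1*, a subunit of a clamp loader, at 86.3 and 70.6 CPM against 8.82 and 11.5 CPM. Not every fork gene was higher. *Top1*, which relaxes supercoils ahead of transcription and replication, was lower in members, at 370 and 387 CPM against 454 and 483 CPM, 0.815-fold (0.757 to 0.878) and 0.801-fold (0.736 to 0.870). *Pold4*, the smallest polymerase delta subunit, had ratios of 0.768 (0.517 to 1.11) and 0.836 (0.536 to 1.26).

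Nucleotide supply was uneven. Of 25 genes, 6 were called, and the medians were 0.48 and 0.64. The thymidylate branch led: *Tk1* (thymidine kinase) was at 171 and 186 CPM against 17.0 and 18.2 CPM, 10.0-fold (8.47 to 11.9) and 10.2-fold (8.48 to 12.4). *Tyms* (thymidylate synthase) was at 263 and 273 CPM against 45.0 and 44.2 CPM. *Rrm1*, the large subunit of ribonucleotide reductase, was 2.93-fold (2.60 to 3.31) and 3.02-fold (2.63 to 3.48) higher. The 3 lowest genes of the list had log2 ratios of 0.10 and 0.03 for *Atic*, 0.20 and -0.03 for *Gart* and -0.15 and 0.03 for *Impdh1*.

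Chromatin assembly and maintenance genes had 13 of 23 called and medians of 1.12 and 1.17. *Uhrf1* was at 197 and 228 CPM against 18.9 and 23.7 CPM, 10.4-fold (8.89 to 12.3) and 9.60-fold (8.13 to 11.4), and its partner *Dnmt1*, the maintenance methyltransferase, at 219 and 224 CPM against 71.9 and 69.0 CPM. *Hells* was at 310 and 347 CPM against 68.3 and 72.5 CPM, and *Chaf1a* at 117 and 126 CPM against 23.2 and 27.4 CPM. The variant histone gene *H2az1* was 2.19-fold (2.13 to 2.26) and 2.18-fold (2.11 to 2.26) higher. Repair genes had 15 of 23 called and medians of 1.27 and 1.31. *Rad51ap1*, a gene of homologous recombination, was at 81.7 and 102 CPM against 5.67 and 8.19 CPM, and *Atad2*, a bromodomain ATPase, at 335 and 344 CPM against 49.7 and 50.2 CPM. Cohesin had 1 of 11 called, the acetyltransferase *Esco2*, at 46.1 and 45.4 CPM against 1.89 and 1.47 CPM. The ring subunits *Smc1a* and *Smc3* had log2 ratios of 0.71 and 0.70, and of 0.55 in both libraries.

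Cyclins of the E and D kinds differed from each other in their ratios. Of 25 genes of G1/S control, 10 were called, with medians of 0.56 and 0.68. *Ccne1* was at 27.8 and 38.9 CPM against 2.44 and 2.73 CPM, and *Ccne2* at 17.3 and 22.1 CPM against 0.866 and 0.735 CPM, a ratio of 20.02 (10.0 to 43.4) and 30.1 (13.3 to 80.1). These cyclins were sparse: at 5000 UMIs, *Ccne1* was seen in 11.2% and 23.1% of members and *Ccne2* in 10.4% and 14.3%. *Ccnd2*, the D-type cyclin that responds to mitogens, did not set members apart, at 951 and 1080 CPM against 939 and 1088 CPM, 1.01-fold (0.966 to 1.06) and 0.993-fold (0.945 to 1.04). *Ccnd1* gave 9 and 1 UMIs in all members. Among E2F family genes, *E2f1* was at 127 and 143 CPM against 19.5 and 25.2 CPM, and the repressor *E2f7* at 35.1 and 34.7 CPM against 0.945 in both libraries. *Mybl2*, a partner of the later cell cycle complex, was at 37.4 and 26.9 CPM against 1.42 and 1.68 CPM. *Mycn* had log2 ratios of -0.08 and -0.22.

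Of the inhibitors of cyclin-dependent kinases, 1 of 5 compared was called, *Cdkn2c* (p18), at 30.1 and 31.1 CPM against 6.46 and 4.62 CPM. *Cdkn1b* (p27), known as a brake on Sertoli cell proliferation, was at 28.3 and 29.9 CPM against 30.3 and 30.02 CPM, 0.933-fold (0.702 to 1.22) and 0.996-fold (0.722 to 1.35). *Cdkn1c* (p57) was somewhat higher in members, 1.45-fold (1.10 to 1.91) and 1.44-fold (1.11 to 1.86). *Cdkn1a* (p21) gave 6 and 9 UMIs in all members.

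**Figure D2:**
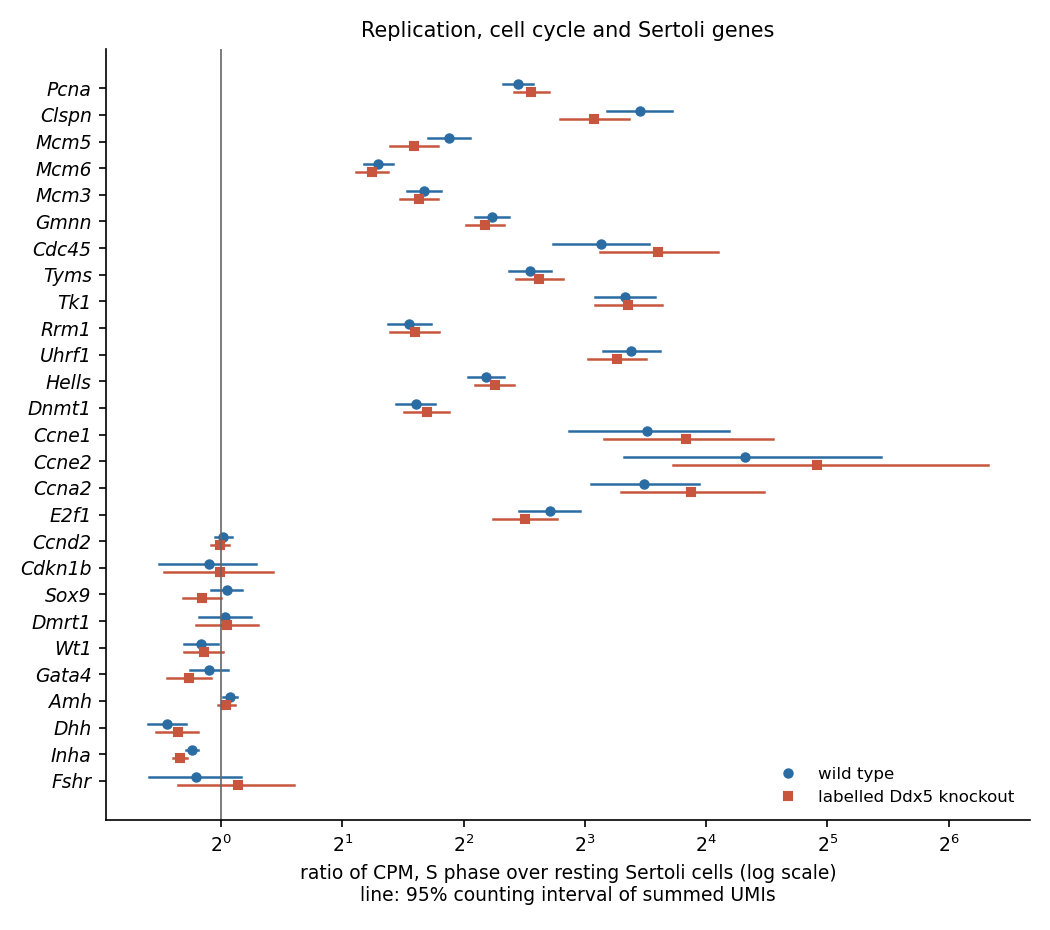
Ratio of CPM in S phase over resting Sertoli cells (x axis, log scale) for 27 named genes, with 95% counting intervals of the summed UMIs as lines, wild type as circles and the library labelled knockout as squares. Replication genes and the E and A cyclins lie right of 1, from 2.37 for *Mcm6* to 30.1 for *Ccne2* in the knockout-labelled library, while *Ccnd2*, *Cdkn1b* and the Sertoli genes lie close to 1 or just under it.

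The members were not free of later cell cycle RNA. Of 45 genes of G2 and mitosis outside the rule, 32 were called, with medians of 1.55 and 1.33, or 2.28 and 2.35 with 1 CPM added in place of 10. *Top2a* was at 364 and 322 CPM against 18.0 in both, 20.2-fold (17.4 to 23.5) and 17.9-fold (15.1 to 21.4). *Mki67* was at 115 and 87.9 CPM against 6.06 and 4.62 CPM, and *Ccna2*, the cyclin of S and G2, at 58.4 and 53.8 CPM against 5.20 and 3.67 CPM. In mitotic Sertoli cells the median of the list was 3.16 and 3.30, so members had a smaller difference from resting cells. The lowest genes of the list were not higher in members: *Ccnb2* had log2 ratios of -0.70 and -0.14 in members but 3.16 and 3.62 in mitotic cells, and *Cenpa*, the centromeric histone, -0.63 and -0.44 but 3.65 and 4.17. The rule set a limit on 3 mitotic genes, which acts on both groups, and how far it fixes these values was not tested. In the opposite order, the licensing list had medians of 0.30 and 0.21 in mitotic cells. *Mcm6* was higher in members and lower in mitotic than in resting cells, with ratios of 2.45 and 2.37 in members and log2 ratios of -0.35 and -0.68 in mitotic cells. *E2f1* had 2.22 and 2.12 against 0.29 and 0.07. Of the 198 genes, 120 were less high in mitotic cells in both libraries and 74 were higher still.

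**Figure D3:**
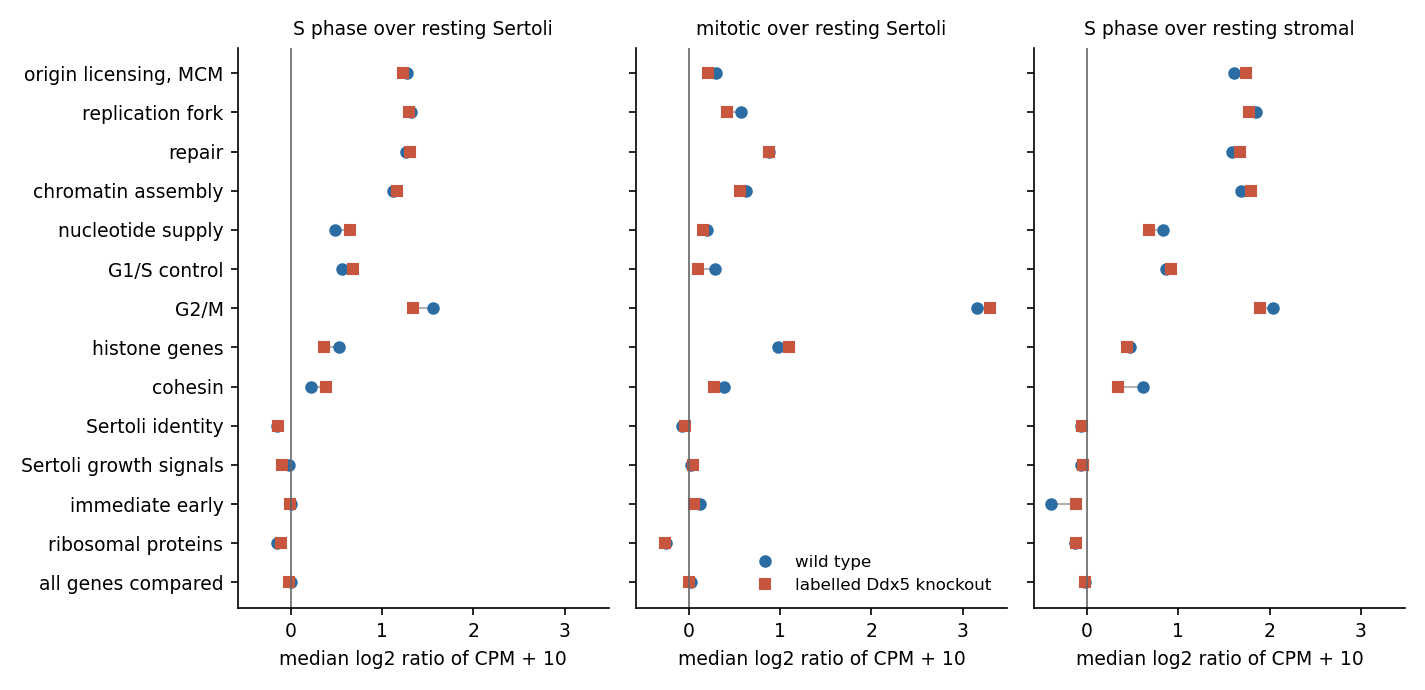
Median log2 ratio of CPM plus 10 for each gene list, for S phase over resting Sertoli cells (left), mitotic over resting Sertoli cells (middle) and S phase over resting stromal cells (right), with wild type as circles and the library labelled knockout as squares. The licensing list is at 1.27 and 1.23 on the left and 0.30 and 0.21 in the middle, and the G2/M list at 1.55 and 1.33 on the left and 3.16 and 3.30 in the middle, while the Sertoli identity list stays near 0.

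Members varied among themselves. At 5000 UMIs per cell, the licensing list gave from 3 to 30 UMIs in 125 wild type members, with a median of 14, and from 4 to 26 in 91 others, with a median of 16. Resting cells had a median of 4 in both libraries, and ranged from 0 up to 20 and 22. The groups thus overlapped, with the lowest members among typical resting cells. The G2/M list ranged from 2 to 54 UMIs in wild type members and from 2 to 43 in the others, with medians of 13 and 12, against 2 in resting cells and 61 and 64 in mitotic cells. The Spearman correlation between the licensing and fork lists across members was 0.31 and 0.26, and between the licensing and G2/M lists 0.29 and 0.17. These cells share a library, and low counts per cell weaken any correlation. Cells with 1 to 3 UMIs of *Pclaf* and *Rrm2*, 204 and 128 in number, lay between: their licensing list medians were 0.52 and 0.47, and their *Mcm5* was at 98.8 and 105 CPM.

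**Figure D4:**
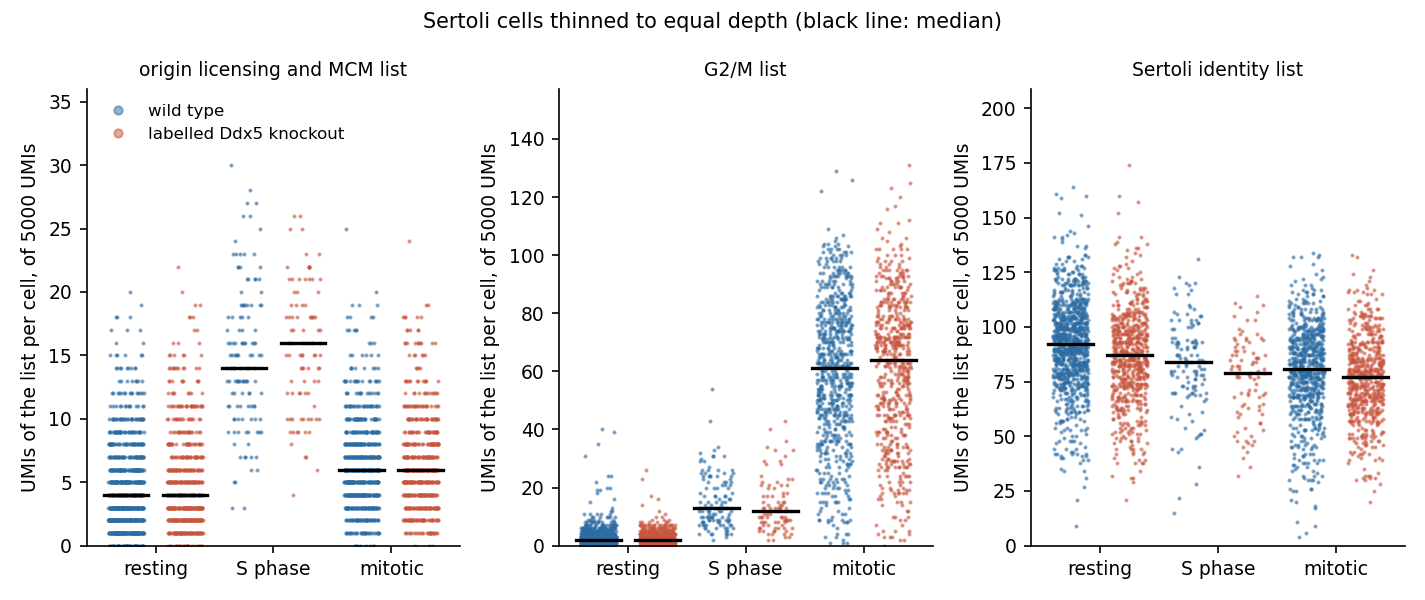
UMIs of a gene list per Sertoli cell after thinning to 5000 UMIs (y axis) for resting, S phase and mitotic cells, each point a cell and each black line a median, for licensing genes (left), G2/M genes (middle) and Sertoli identity genes (right). S phase cells have medians of 14 and 16 licensing UMIs against 4 in resting cells, and 13 and 12 G2/M UMIs against 61 and 64 in mitotic cells.

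Sertoli identity genes were close to their resting level, most of them slightly under it. Of 35 identity genes compared, 0 were called in either direction, and the medians were -0.16 and -0.14, where all genes were at 0.00 and -0.02. In both libraries 23 were below 0, 6 were above and 10 had counting intervals under 1, where of all 12219 genes 4286 were below 0, 4011 above and 541 had such intervals. *Dmrt1*, a lineage factor, was at 96.8 and 90.9 CPM against 94.7 and 87.7 CPM. *Wt1* was at 224 and 225 CPM against 251 and 249 CPM. *Dhh*, the hedgehog ligand that Sertoli cells send to Leydig precursors, was at 173 and 187 CPM against 235 and 240 CPM, 0.736-fold (0.659 to 0.819) and 0.780-fold (0.691 to 0.878). *Inha*, the inhibin alpha subunit, was 0.846-fold (0.819 to 0.874) and 0.791-fold (0.760 to 0.823), and *Shbg* 0.786-fold (0.680 to 0.904) and 0.745-fold (0.631 to 0.875). The rule gene *Amh* itself was at 1226 and 1170 CPM against 1164 and 1136 CPM. CPM divides by the total of the group, and members hold more UMIs per cell, so a slightly lower CPM need not be fewer molecules per cell. Ribosomal protein genes had medians of -0.15 and -0.11.

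A few genes of that list had higher CPM in members. *Lhx9*, a gonadal homeobox gene, was at 29.7 and 34.7 CPM against 14.8 and 25.2 CPM, 2.00-fold (1.49 to 2.67) and 1.38-fold (1.02 to 1.84). Its level in stroma was higher than in Sertoli cells, 181 and 223 CPM in S phase and 240 and 254 CPM in resting stromal cells, so it does not mark Sertoli cells here, and the part of stromal RNA in the ratio was not tested. *Mybl1* was at 34.2 and 26.3 CPM against 13.2 and 14.7 CPM, and its log2 ratio was also above 0 in mitotic cells, 1.41 and 1.39. Receptors and signals of Sertoli growth had 0 of 21 called and medians of -0.02 and -0.09. *Fshr*, the receptor for follicle-stimulating hormone, was at 30.6 and 26.9 CPM against 35.3 and 24.5 CPM, 0.867-fold (0.660 to 1.12) and 1.10-fold (0.781 to 1.52). *Thra*, the thyroid hormone receptor, was lower in members, at 366 and 402 CPM against 465 and 470 CPM. Immediate early genes, which also mark dissociation stress, had medians close to 0 in both libraries, the larger in size being -0.01.

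With 10 CPM added 3 genes were lower in both libraries, and with 1 CPM added 41. *H2bc4*, a replication-dependent histone H2B gene, was at 5.93 and 5.98 CPM in members against 82.1 and 83.6 CPM in resting cells, from 13 and 10 UMIs, which is 0.0722-fold (0.0383 to 0.124) and 0.0715-fold (0.0341 to 0.132). Libraries primed on poly(A) catch histone mRNAs poorly, since most end without a tail, so these values concern the tailed RNA of the locus. The linker histone gene *H1f0* was 0.613-fold (0.550 to 0.682) and 0.654-fold (0.578 to 0.737). At 5000 UMIs it was seen in 53.6% and 50.5% of members, 68.6% and 67.0% of resting and 68.6% and 71.6% of mitotic Sertoli cells. *H2aw* was 0.458-fold (0.295 to 0.683) and 0.488-fold (0.300 to 0.755). Of the 62 genes of the histone list, which does not hold *H1f0* or *H2aw*, 19 were compared. Of these 2 (10.5%) were called higher, *H1f5* and *Hist1h2ap*, and 1 lower, *H2bc4*, where over all genes 1.62% were higher and 0.0246% lower. Most of the 19 were higher in members: 15 were above 0 in both libraries and 3 below, with medians of 0.53 and 0.36. Counting intervals lay above 1 in both libraries for 10 and under 1 for 2. The demethylase gene *Kdm5b*, whose product acts on histone H3 lysine methylation, was at 103 and 82.5 CPM against 223 and 214 CPM, 0.460-fold (0.3998 to 0.527) and 0.386-fold (0.323 to 0.459). At 5000 UMIs *Kdm5b* was seen in 40.8% and 33.0% of members and in 62.4% and 59.6% of resting cells. It was seen in 46.8% and 43.0% of mitotic Sertoli cells. In stroma the shares were 15.9% and 14.7% of S phase and 50.5% and 49.9% of resting cells. *Kdm6b* was at 28.3 and 34.1 CPM against 58.6 and 63.4 CPM, and *Kdm7a* at 67.6 and 66.4 CPM against 111 and 106 CPM. In all, 17 genes (0.139% of those compared) were at least 1.5-fold lower in both libraries. The histone and demethylase genes named here were also lower in S phase than in resting stromal cells. Log2 ratios there were -1.46 and -1.74 for *Kdm5b*, -1.33 and -1.06 for *Kdm7a* and -0.62 and -0.955 for *Kdm6b*. They were -1.10 and -1.38 for *H2bc4*, -1.345 and -1.18 for *H2aw* and -0.62 and -0.59 for *H1f0*. Of the 17, *Hba-a1* in both libraries and *Apoe*, *C1qa* and *Pf4* in the knockout-labelled one were higher there.

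Several of the 17 were markers of other cells. *Apoe*, made by macrophages and other cells, was at 12.8 and 29.9 CPM against 101 and 88.3 CPM, and *C1qa*, *Lyz2* and *Pf4* of macrophages and *Hba-a1* of red cells were also among them. The 4 defining macrophage markers summed to 0.913 and 2.99 CPM in members, with 3 and 2 of the 4 at 0, against 26.6 and 36.4 CPM in resting cells. The 4 globin genes summed to 6.39 and 18.5 CPM against 91.1 and 43.2 CPM. With *Gins2*, *Uhrf1* and *Clspn* as the choosing genes the red cell list turned to higher in wild type members, with a median log2 ratio of 2.30, and *Lyz2* to 0.10 in the knockout-labelled library, so these directions were not stable. The 4 Leydig markers summed to 13.7 and 17.9 CPM in members, with 1 and 0 of the 4 at 0, but to 20.3 and 311 CPM in resting cells. Stromal markers were at 344 and 633 CPM against 377 and 621 CPM. Germ markers were at 3.65 and 2.39 CPM, with 1 and 3 of the 4 at 0, against 11.3 and 0.840 CPM. Myoid markers were at 136 and 92.7 CPM against 89.7 and 73.3 CPM, with *Acta2*, smooth muscle actin, at 1.72-fold (1.49 to 1.99) and 1.34-fold (1.09 to 1.64). Across the alternative settings the myoid list median ran from 0.01 to 0.72 in wild type and from -0.53 to 0.87 in the knockout-labelled library, so its direction in the latter was not stable. The stromal list ran from -0.83 to 0.31 and from -0.82 to 0.48, and the germ list from -0.50 to 0.91 and from -0.11 to 0.06. The endothelial list ran from -0.165 to 0.409 and from -0.129 to 0.114. The directions of these 3 lists were thus not stable in either library. Endothelial markers were at 30.1 and 26.3 CPM against 24.5 and 25.1 CPM. Over all cells the same sums were 87.7 and 194 CPM for macrophage, 120 and 648 CPM for globin and 835 and 1014 CPM for Leydig markers. The part of such RNA in the lower genes was not tested.

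Stromal cells were the only other cells compared by the same S phase limits. Of the 198 genes, 193 were also at least 2-fold higher in S phase than in resting stromal cells in both libraries, which is 97.5% of the Sertoli list and 59.8% of the 323 genes in the stromal list. The same genes chose the cells in both types, so the overlap is in part built in. Stromal ratios were larger for the licensing list. Its median was 1.61 and 1.74 in stroma, and *Mcm5* had log2 ratios of 2.72 and 2.80 against 1.71 and 1.46 in Sertoli cells. For *Mcm5* the S phase levels were close, at 199 and 209 CPM in S phase stromal cells and 209 and 193 CPM in members. Its resting levels were not, at 21.7 and 21.3 CPM in resting stroma and 56.9 and 64.0 CPM in resting Sertoli cells. At 5000 UMIs, 21.7% (19.1% to 24.4%) and 24.8% (21.5% to 28.3%) of resting Sertoli cells held an *Mcm5* UMI, against 8.12% (7.01% to 9.35%) and 7.54% (6.39% to 8.82%) of resting stromal cells. *Mcm3*, *Mcm7* and *Hells* had the same order, with *Hells* at 68.3 and 72.5 CPM in resting Sertoli and 18.1 and 18.7 CPM in resting stromal cells. *Ccne1* had the reverse pattern, at 70.2 and 94.1 CPM in S phase stroma against 27.8 and 38.9 CPM in members, and at 3.48 and 3.39 CPM against 2.44 and 2.73 CPM in resting cells. *Pcna* differed less in resting cells, at 85.6 and 81.4 CPM against 64.4 and 60.3 CPM.

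Genes whose S phase ratio was most above that of stroma included *Gdf15*, a stress-responsive TGF-beta family ligand, at 89.9 and 92.7 CPM in members against 50.1 and 46.5 CPM in resting Sertoli cells. In S phase stromal cells it gave 1 UMI in each library. *Arhgap20*, a GTPase activating protein gene, was 1.51-fold (1.18 to 1.91) and 1.54-fold (1.13 to 2.07) higher in members, at 40.2 and 34.1 CPM. Its level was higher in stroma, at 178 and 163 CPM in S phase and 259 and 237 CPM in resting stromal cells. Genes whose ratio was most below that of stroma included *H1f5*, a linker histone gene, at 208 and 216 CPM in members against 66.8 and 85.0 CPM in resting Sertoli cells, while its log2 ratios in stroma were 3.29 and 2.88. Others named by the same rule were globin genes, *Hist1h2ap* and *Apoe* below and *Fcgrt*, *Hspa1a* and *Tgfb2* above, all with 66 or fewer UMIs in the members of either library apart from *Hist1h2ap*.

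Outside the lists, the 10 highest genes were *Slfn9*, *Fbxo5*, *Fam111a*, *Cenpm*, *Kif15*, *Tcf19*, *Diaph3*, *Lrr1*, *Cenph* and *Cenpk*. *Slfn9*, a Schlafen family gene, was at 97.7 and 118 CPM against 6.30 and 6.93 CPM, 15.5-fold (11.9 to 20.3) and 17.0-fold (12.8 to 22.8). In mitotic cells its log2 ratio was 1.06 and 1.15, against 2.72 and 2.92 in members. *Fbxo5*, which encodes EMI1, an inhibitor of the anaphase-promoting complex, was at 79.4 and 98.1 CPM against 6.61 and 8.29 CPM. *Fam111a*, a protease gene that helps forks pass obstacles, was at 63.0 and 77.1 CPM against 3.70 and 7.03 CPM. *Lrr1*, a ubiquitin ligase subunit that unloads the helicase, was at 43.8 and 49.0 CPM against 3.39 and 4.20 CPM. The set also held kinetochore genes, *Cenpm*, *Cenph* and *Cenpk*, whose log2 ratios ran from 1.99 to 2.36 in wild type members.

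Promoter windows, 250 bases before to 50 bases after each RefSeq start, were matched by symbol for 9110 of the genes compared and for 160 of the 198. The E2F letters searched on both strands were TTTGGCGC, TTTCCCGC, TTTGGCGG, TTTCGCGC and TTTCCCGG. They were present for 52 of the 160 genes (32.5%) and for 705 of 9110 (7.74%). The CHR letters TTTGAA and TTCGAA, the latter its own reverse complement, were present for 59 (36.9%) and for 1455 (16%). The shares differed between higher genes split by their ratio in mitotic cells. This is a description, since the rule used the contrast that gave these genes, and timing itself was not measured. Of 100 higher genes that were less high in mitotic cells, 43% held E2F letters and 19% CHR letters. Of 56 that were higher still in mitotic cells, 14.3% held E2F letters and 66.1% CHR letters. By list, E2F letters were present for 10 of 19 licensing and 13 of 29 fork promoters, such as those of *Mcm5*, *Mcm6* and *Clspn* printed above. They were present for 5 of 35 G2/M promoters, of which 29 held CHR letters. Nucleotide supply had 1 of 24 and Sertoli identity 0 of 21 with E2F letters. The rule gene *Pclaf* had a match and *Rrm2* and *Pcna* had none in these windows. A match is a string of letters and not a bound site.

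**Figure D5:**
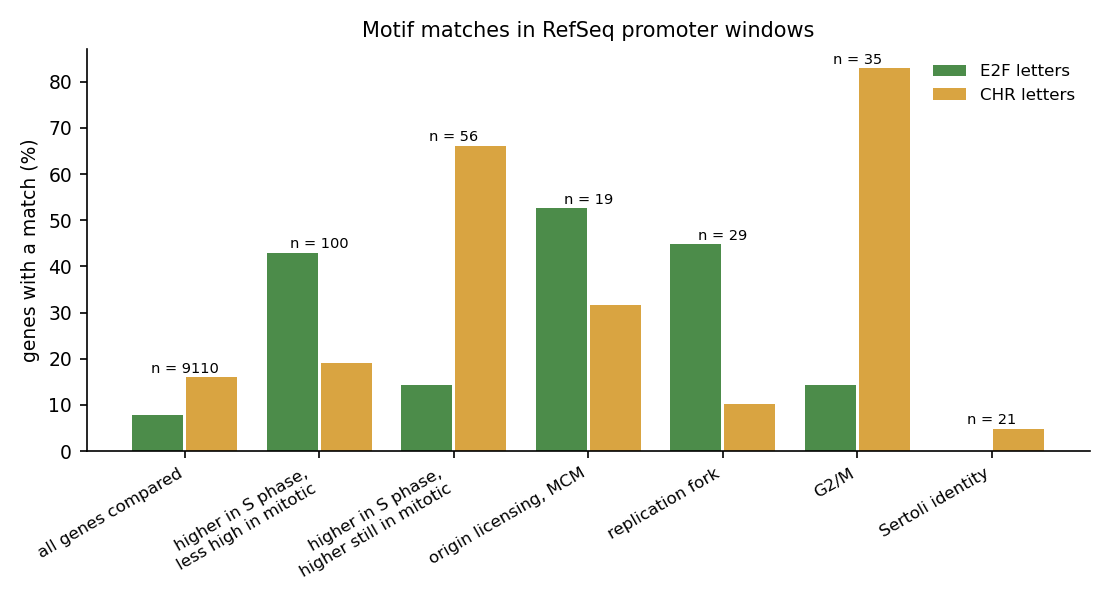
Percent of genes (y axis) with E2F letters (green) and CHR letters (yellow) in their promoter window, for all genes compared, for genes higher in S phase Sertoli cells split by whether they were less or more high in mitotic cells, and for 4 lists, with the number of genes above each pair. E2F letters stand at 43% in the less high set and 7.74% over all genes, and CHR letters at 66.1% in the set higher still in mitotic cells and 16% over all genes.

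Relative to wild type members, 7 genes (0.0573% of those compared) were at least 2-fold higher in knockout-labelled members and 4 (0.0327%) were at least 2-fold lower. These counts depend on the settings: with 1 CPM added in place of 10 they were 255 and 308, and without any mitotic UMI 16 and 24. No gene of the replication lists was called. Their medians between libraries were -0.01 for licensing, 0.03 for the fork and 0.07 for chromatin assembly. *Pcna* had a ratio of 1.03 (0.936 to 1.13), *Tyms* of 1.04 (0.915 to 1.17) and *Mcm5* of 0.922 (0.797 to 1.07).

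The genes named here lay on the same side in resting cells. *Dcn*, a stromal proteoglycan, was at 157 CPM in wild type and 337 CPM in knockout-labelled members, and at 174 and 339 CPM in resting cells. *Ptn* was at 50.7 and 120 CPM, and at 49.5 and 79.8 CPM in resting cells. *Cxcl12* was at 57.1 and 132 CPM, against 63.1 and 107 CPM in resting cells. *Maob* (20 and 60 UMIs in members), *Ifitm1*, *CT010467.1* and *Ebf1* were the other genes of this group, and *Ebf1* was added to the named genes after its values were seen. The stromal list as a whole was higher in knockout-labelled than wild type members, with a median of 0.88, and 0.47 in resting cells. Without barcodes that Scrublet called doublets, 0 genes were at least 2-fold higher, 8 were lower, and the stromal list median was 0.11. Among genes lower in knockout-labelled members, *Ecrg4*, also named after its values were seen, gave 47 and 1 UMIs. *Gm43305* was at 40.2 and 7.18 CPM and at 26.1 and 4.93 CPM in resting cells, a ratio of 0.179 (0.0889 to 0.328) and 0.189 (0.136 to 0.257). *Btg2*, an antiproliferative early response gene, was at 67.6 and 28.1 CPM. *Fosb*, at 21.9 and 5.98 CPM, was just short of the 2-fold limit with 10 CPM added. The immediate early list as a whole was lower in the knockout-labelled library, with medians of -0.35 in members and -0.27 in resting cells, and the part of dissociation in these values was not tested. *Igfbp5*, a binding protein of insulin-like growth factors, was at 57.1 and 21.5 CPM in members and at 25.6 and 16.3 CPM in resting cells. *Mgarp* was at 120 and 58.6 CPM, a log2 ratio of -0.92, also short of the 2-fold limit. With 1 library per genotype, genotype and library cannot be told apart.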

How the data were processed

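The authors deposited a table of UMI counts, not normalized, for 30451 genes and 12186 barcodes. Per the labels, cells were dissociated with TrypLE and captured with 10x Chromium 3′ v3 chemistry, and the submitters' processing notes name Cell Ranger 3.1.0, Seurat 3.1.5 and GRCm38. The gene annotation is not given in the sources used here. The filter used here (at least 2000 genes, at most 10% mitochondrial UMIs) follows the study's methods. It left 6329 and 4950 barcodes, the first being 1 above the number the study states. Total UMIs were 84263163 and 67558106, with medians of 10891 and 11128 per barcode.

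Members and gene lists were chosen with earlier results of these data known. UMIs were summed per group and library and divided by the sum to give CPM. Ratios have exact conditional binomial intervals (95%). Genes needed 50 UMIs over the 4 sums and 10 CPM was added before logarithms. Cells are not replicates, and the genes of this contrast chose the cells, so no test was made. Genes named were those of the rule, fixed cell cycle and Sertoli genes, the 3 highest and 3 lowest of each list, the 10 highest and 10 lowest outside lists, and the 6 on each side between libraries and against stroma. Some of these genes are not reported here. Stromal cells held at most 1 *Amh* UMI, at most 1 of the 4 further Sertoli markers and at least 3 of *Dlk1*, *Dcn*, *Ogn* and *Pdgfra*. Doublets were called, not removed, by Scrublet in scanpy 1.11.5. Python 3.11.15, NumPy 2.4.6 and SciPy 1.17.1 were used. The code was tested on simulated data. Replicates within a group may be technical.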

Additional observations from a re-analysis of the deposited data

Results flagged for a closer look

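Some named genes were lower or higher in S phase Sertoli cells than in resting ones in both libraries and the other way in stromal cells, with counting intervals apart from 1 in all 4 ratios. The difference between the cell types was not tested. *Lhx9* had a log2 ratio nearer to 0 of 0.34 in Sertoli cells, and -0.39 and -0.18 in stroma, where it was at 181 and 223 CPM in S phase. *Arhgap20* had 0.45 in Sertoli cells, and -0.52 and -0.51 in stroma, where it was at 178 and 163 CPM in S phase. The globin genes *Hba-a1*, *Hba-a2* and *Hbb-bs* had -0.77, -0.53 and -0.50 in Sertoli cells, from 1 to 18 UMIs in the members of a library. With *Gins2*, *Uhrf1* and *Clspn* as the choosing genes their wild type ratios turned to 2.30, 2.55 and 2.23, the direction seen in stroma. In stroma they had 2.28 and 1.72, 2.09 and 1.69, and 3.86 and 2.22. Summed globin markers over all cells were at 120 and 648 CPM, and the part of red cell RNA in these ratios was not tested.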

How the results depend on the processing

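The alternatives moved the cell limits, the depth of the resting cells, doublets, scaling, the added CPM, the minimum of UMIs and the genes that chose the members. The share of wild type Sertoli cells in S phase was 6.87% with at least 3 UMIs of *Pclaf* and *Rrm2* and 4.65% with at least 6, and without any mitotic UMI the shares were 2.75% and 2.81%. Genes higher in both libraries numbered 161 to 318, the latter with 1 CPM added, and 79.3% to 100% of the 198 remained among them. Genes lower in both numbered 5 without doublets, 41 with 1 CPM added and 5 with *Gins2*, *Uhrf1* and *Clspn* in place of *Pclaf* and *Rrm2*. The G2/M list median ran from 1.24 to 2.28 in wild type and from 1.03 to 2.35 in the other library, and the licensing list median from 1.06 to 1.59 and from 1.04 to 1.57. Between libraries the counts were unstable. Genes higher in knockout-labelled members numbered 16 with at least 3 UMIs, 16 without any mitotic UMI, 0 without doublets, 11 with CPM outside ribosomal and mitochondrial genes, 255 with 1 CPM added and 3 with the other choosing genes, and genes lower numbered 24 without any mitotic UMI, 2 with at least 5 *Amh* UMIs, 8 without doublets, 7 outside ribosomal and mitochondrial genes, 308 with 1 CPM added and 10 with the other choosing genes. With those choosing genes the red cell list (2.30), *Hba-a1* (2.30), *Hba-a2* (2.55) and *Hbb-bs* (2.23) in wild type and *Lyz2* (0.10) in the other library turned to higher in S phase, and the cause was not tested. Leaving out the barcodes shared by the suffixes, an alternative chosen after seeing the data, gave 196 genes higher in both. The macrophage list gave no value with resting cells of matched depth, and the search of proteins was not run. No paired analysis was possible because the table's columns carry none of the labels' replicate numbers, and for the same reason no library could be left out. Depth limits genes such as *Ccne2*, with 38 and 37 UMIs in all members.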
